A study of Mus musculus with 18 samples.

Results

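The 6 genes described here, Mup3, Mup4, Mup5, Mup6, Mup20 and Mup21, lie at the periphery of the major urinary protein (Mup) cluster on mouse chromosome 4 and are more distinct in sequence than the near-identical copies at its center. They were taken by name and make up 6 of the 22 Mup genes named with a number among 52230 genes in the files, and all 6 were among the 10938 genes tested. The data were liver RNA-sequencing libraries from 18 mice of the GCKR-P446L-EMI-B6N line, 1 library per mouse, in which the proline of GKRP is replaced by leucine. GKRP, the product of Gckr, binds and inhibits glucokinase in the hepatocyte. PP denotes Gckr-446P (wild type) and LL denotes Gckr-446L (knock-in). There were 4 male mice and 5 female mice of each genotype, all kept on standard chow. The labels gave ages of 9, 12, 14 and 14 weeks for male PP, 13, 13, 13 and 14 weeks for male LL, 9, 9, 11, 12 and 14 weeks for female PP and 11, 11, 13, 13 and 14 weeks for female LL, whereas the series text gave 14 weeks. Libraries held 3794671 to 6613905 estimated counts.

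Major urinary proteins are small lipocalins, barrel-shaped carriers that hold volatile pheromones. The liver secretes them into blood, the kidney passes them into urine, and male mice excrete far more than females because the pulsatile male pattern of growth hormone, acting through STAT5b, drives their transcription. Mup20 encodes darcin, the urinary pheromone by which females learn the scent of a particular male.

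Mup4 and Mup6 occupied the proximal end of the cluster and Mup5, Mup20, Mup3 and Mup21 the distal end (GENCODE annotation, GRCm39, main transcript of each gene). Mup4 lay at chr4:59956804-59960710 on the minus strand and Mup6 at chr4:60003438-60007274 on the plus strand. Mup5 lay at chr4:61749556-61753470, Mup20 at chr4:61968471-61972395, Mup3 at chr4:62001713-62005620 and Mup21 at chr4:62066056-62069175, all on the minus strand. Mup21 had 6 exons and the other members 7. Coding sequences of the 6 were 82.4% to 94.7% identical to each other over 15 pairs (median 87.5%), whereas the 120 pairs among the 16 other Mup genes were 98.2% to 99.8% identical. Mup3 and Mup21 were the closest members to each other (94.7%), and Mup4 was 92.0% identical to Mup5 and 91.8% to Mup6.

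The stretch of coding sequence in which the members differed most from Mup7, a central copy with the highest mean TPM in male PP, is shown to make this distance visible. It covers 90 bases of 1 exon, 5′ to 3′ on the coding strand, and capitals mark bases that differ from Mup7.
Mup7: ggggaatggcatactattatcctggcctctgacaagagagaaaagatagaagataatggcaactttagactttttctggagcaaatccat
Mup3: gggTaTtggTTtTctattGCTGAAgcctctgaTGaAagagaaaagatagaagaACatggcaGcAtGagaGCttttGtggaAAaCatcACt
Mup21: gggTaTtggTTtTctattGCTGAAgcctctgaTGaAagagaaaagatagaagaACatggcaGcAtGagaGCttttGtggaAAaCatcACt
Mup20: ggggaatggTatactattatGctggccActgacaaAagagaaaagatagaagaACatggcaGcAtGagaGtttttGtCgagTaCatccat
Mup4: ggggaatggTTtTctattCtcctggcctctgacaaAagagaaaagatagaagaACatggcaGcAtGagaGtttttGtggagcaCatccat
Mup5: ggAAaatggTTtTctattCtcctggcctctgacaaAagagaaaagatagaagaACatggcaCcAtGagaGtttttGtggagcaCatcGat
Mup6: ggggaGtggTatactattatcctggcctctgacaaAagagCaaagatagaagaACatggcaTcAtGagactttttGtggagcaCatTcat

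These lie at chr4:60069771-60069860 for Mup7, chr4:62005075-62005164 for Mup3, chr4:62068470-62068559 for Mup21, chr4:61971755-61971844 for Mup20, chr4:59960077-59960166 for Mup4, chr4:61752830-61752919 for Mup5 and chr4:60003984-60004073 for Mup6 (GRCm39, Mup6 on the plus strand and the others on the minus strand). Mup3 and Mup21 each differed from Mup7 at 27 of the 90 bases, Mup5 at 16, Mup20 at 14, Mup4 at 13 and Mup6 at 12. Reads from such a stretch differ between the members, apart from Mup3 and Mup21, which were identical here. Of all 31-base words in the transcripts of each gene, the share also found in a transcript of another gene was 21.3% for Mup6, 26.6% for Mup21, 33.0% for Mup3, 37.0% for Mup5, 38.0% for Mup4 and 64.5% for Mup20. The 16 other Mup genes shared 69.0% to 100% of their words (median 92.3%). Salmon divides reads that match several copies by its likelihood model, and the share of such reads was not measured. Mup20 shared 51.2% of its words with the pseudogene Mup-ps19, which was listed at 0 to 6739 normalized counts in male PP, 585 to 7246 in male LL, 0 in all female PP and at most 31.3 in female LL.

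**Figure D1:**
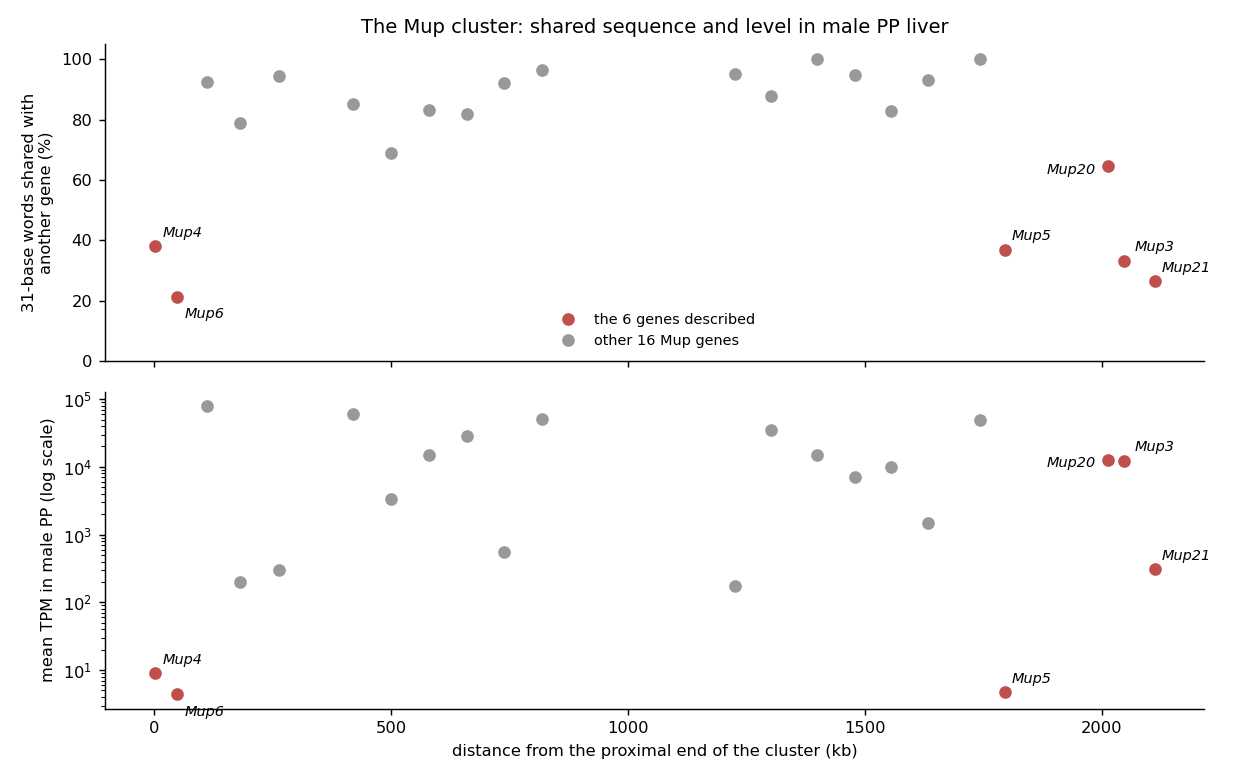
Position of 22 Mup genes as distance in kb from the proximal end of the cluster, against the percent of 31-base words shared with another gene (top) and the mean TPM of 4 male PP mice on a log scale (bottom). The 6 genes described sit at both ends of the cluster and share 21.3% to 64.5% of their words, below each of the 16 others.

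Promoter sequences were held for Mup3, Mup4, Mup6 and Mup21 in the RefSeq table (GRCm38.p6). They are shown because all 4 were called lower in females, and Mup5 and Mup20 are not shown. Each runs 132 bases 5′ to 3′ and ends with the letters TATATAA, in capitals.
Mup3: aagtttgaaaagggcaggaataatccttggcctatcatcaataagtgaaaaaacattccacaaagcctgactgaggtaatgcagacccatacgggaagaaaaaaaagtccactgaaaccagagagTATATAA
Mup21: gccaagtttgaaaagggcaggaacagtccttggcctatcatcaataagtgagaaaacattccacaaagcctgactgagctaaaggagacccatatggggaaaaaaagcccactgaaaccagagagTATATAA
Mup4: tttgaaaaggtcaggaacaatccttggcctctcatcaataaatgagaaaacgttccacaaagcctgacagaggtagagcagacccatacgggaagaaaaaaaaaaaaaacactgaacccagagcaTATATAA
Mup6: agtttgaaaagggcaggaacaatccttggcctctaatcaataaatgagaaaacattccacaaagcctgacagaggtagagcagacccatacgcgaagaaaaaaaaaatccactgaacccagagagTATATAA

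In GRCm38.p6 these are chr4:62087322-62087453 for Mup3, chr4:62150843-62150974 for Mup21, chr4:59960690-59960821 for Mup4 and chr4:60003327-60003458 for Mup6. The 4 stretches were 79.0% (Mup21 and Mup4) to 91.0% (Mup4 and Mup6) identical in pairs. The word TATATAA, on either strand, was in all 4 and in 9 of 10 other Mup promoters of the table, against 3.24% of all 32851 promoters of the same 300 bases. The palindromic word TTCNNNGAA, the consensus bound by STAT5, was in 0 of the 4 and 0 of the 10 in this window, against 8.30% of all promoters. A match is a description of letters, not a site.

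Levels between genes were compared as TPM, which is scaled per length. In male PP the order was Mup20 (12775 ± 5057 TPM, SD, n = 4), Mup3 (12034 ± 1739), Mup21 (312 ± 118), Mup4 (9.12 ± 2.39), Mup5 (mean 4.80, range 3.17 to 6.13) and Mup6 (4.38 ± 2.50). Mup20 and Mup3 overlapped, as did Mup5 and Mup6, whereas Mup21 stood apart from its neighbors in all 4 mice. In male LL Mup3 came first at 10811 ± 1250 TPM and Mup20 second at 9164 ± 4219. In female PP Mup3 was at 7344 ± 4538 TPM (n = 5) and Mup20 at 222 ± 211, with Mup21 at 15.1 ± 6.84 and the remaining members between 1.10 and 1.35. Female LL kept that order with 4189 ± 1716 TPM for Mup3, 95.5 ± 53.2 for Mup20 and 12.4 ± 7.46 for Mup21. Mup3 and Mup20 together carried 99.0% to 99.9% of the normalized counts of the 6 genes, and the 6 carried 1.55% to 2.55% of a male PP library and 0.224% to 0.695% of a female library.

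The comparison of the sexes showed all 6 members lower in females than in males, by sizes that differed widely among them. In PP mice the female level was 102-fold lower for Mup20, 26.9-fold for Mup21, 12.5-fold for Mup4, 8.79-fold for Mup6, 6.82-fold for Mup5 and 2.92-fold for Mup3. DESeq2 called 6 of 6 lower in female PP against male PP (2.77% of all 10938 genes tested were called lower, 6.45% in either direction) and 6 of 6 lower in female LL against male LL (2.79% lower, 6.12% in either direction). Mup5 and Mup6 passed the limit of 10 counts in 4 libraries through male libraries alone, and Mup4 through 7 male libraries and 1 female library, so these members had to differ to be tested and the count of 6 is a description. In the values that follow, the unit is the normalized count (estimated count over the DESeq2 size factor), the 4 or 5 values are in the order of the replicate numbers, and fold changes are on the log2 scale with their standard errors (SE) and Benjamini-Hochberg adjusted P from the DESeq2 Wald test.

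Mup20, the pheromone darcin, was the member with the widest gap. Male PP mice had 69416, 49090, 65233 and 69167 normalized counts and male LL mice 19484, 47166, 34245 and 63341. Female PP mice had 783, 417, 1311, 233 and 347, and female LL mice 723, 366, 124, 505 and 268. The lowest male was far above the highest female in each genotype, and 3 of 4 male LL mice lay below every male PP mouse. The log2 fold change between the sexes was -6.68 ± 0.52 in PP (adjusted P = 1.34e-34) and -6.69 ± 0.52 in LL (adjusted P = 1.80e-34). Male LL against male PP gave -0.62 ± 0.55 (adjusted P = 0.722), with a mean at 64.9% of male PP, and female LL against female PP gave -0.64 ± 0.49 (adjusted P = 0.573). With the counts of Mup-ps19 added to those of Mup20, an alternative chosen after seeing the data, male LL stood at 66.4% of male PP and female PP at 0.930%.

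Mup21 is the most distal member and the closest in sequence to Mup3. Its normalized counts were 1523, 789, 867 and 1001 in male PP and 448, 827, 868 and 800 in male LL. In females they were 74.0, 27.4, 49.0, 26.8 and 16.6 (PP) and 37.7, 14.1, 16.2, 61.5 and 29.1 (LL). Males and females did not overlap, whereas the male genotypes did. The difference between the sexes was -4.75 ± 0.45 on the log2 scale in PP (adjusted P = 1.21e-23) and -4.55 ± 0.45 in LL (adjusted P = 6.31e-21). By genotype the difference was -0.51 ± 0.46 in males (adjusted P = 0.738) and -0.30 ± 0.44 in females (adjusted P = 0.803).

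Mup3, about as abundant as Mup20 in male liver, was the member with the smallest difference between the sexes. Male PP mice had 83918, 50594, 67949 and 49467 normalized counts and male LL mice 39456, 55460, 58196 and 40678. Female PP mice had 31740, 18881, 31671, 12886 and 12510, and female LL mice 29766, 21133, 10291, 13772 and 12418. Every female lay below every male of her genotype, with the highest female PP mouse 1.56-fold below the lowest male PP mouse. The log2 fold change between the sexes was -1.55 ± 0.31 in PP (adjusted P = 3.76e-05) and -1.47 ± 0.31 in LL (adjusted P = 0.000174). On the TPM scale the lengths Salmon inferred for each library enter, and every library has the same total. There female PP 3 reached 14084 TPM within the male PP range of 10892 to 14585. For PP, limma on log2(TPM + 1) gave -0.92 with an adjusted P of 0.0549. DESeq2 with total count scaling gave -1.18 for PP (Wald test, adjusted P = 0.00112). The Mup genes named with a number held 21.5% to 30.0% of the counts in male PP and 2.00% to 6.91% in female PP. The part of these shares in the Mup3 values was not tested. By genotype Mup3 differed by -0.38 ± 0.33 in males (adjusted P = 0.719) and -0.30 ± 0.29 in females (adjusted P = 0.679). Salmon divided its counts between 2 transcripts, the first of which held 47.1% to 63.4% per mouse.

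**Figure D2:**
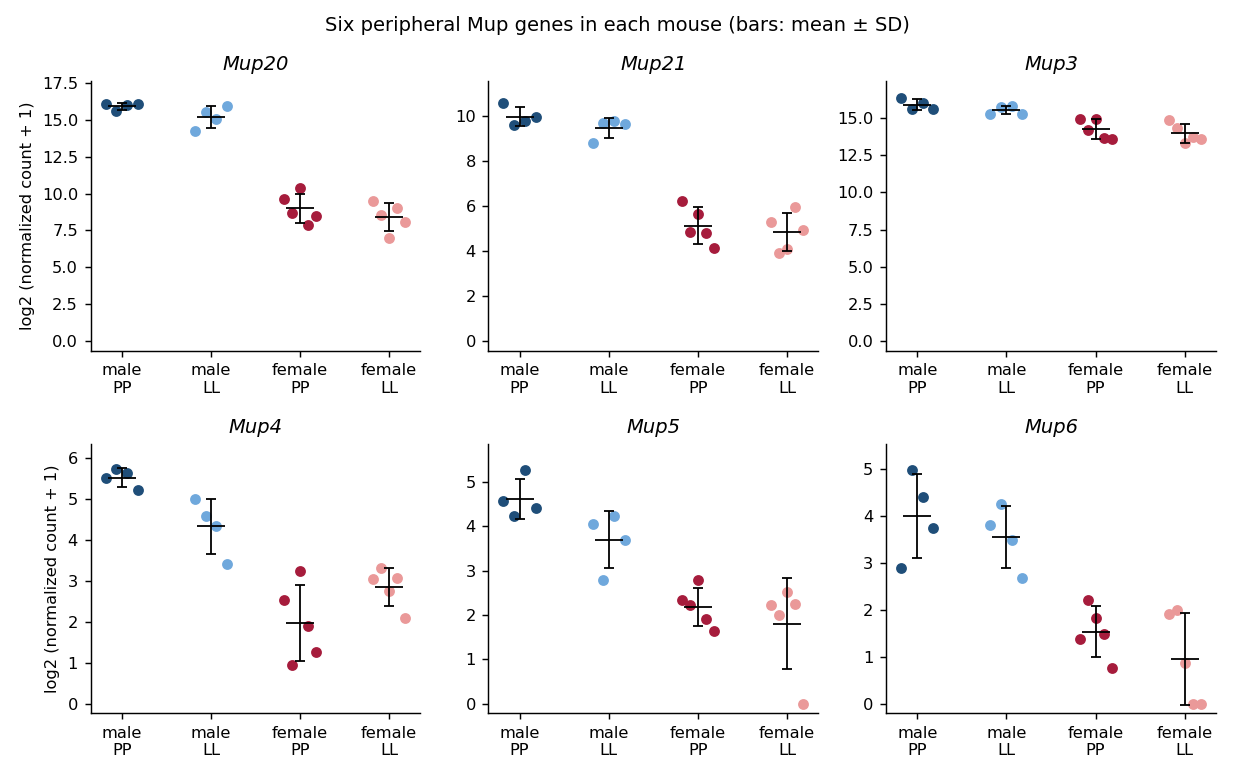
Level of each gene in each of 18 mice as log2 (normalized count + 1), by group, with the mean and SD as bars. For all 6 genes the male and female mice of a genotype do not overlap on this scale, and for Mup4 the 4 male LL mice also lie below the 4 male PP mice.

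Mup4, Mup5 and Mup6 were close to the limit of detection in liver, with at most 52 estimated counts in any library. These 3 members shared 21.3% to 38.0% of their 31-base words with other genes. The 16 other Mup genes summed to 1430060 normalized counts in male PP, 750989 in male LL, 154707 in female PP and 132966 in female LL. Whether reads of those abundant copies were assigned to Mup4, Mup5 or Mup6 was not tested. Counting error adds to the spread of such low counts, and its share was not measured. Mup4, at the proximal edge of the cluster, had 44.8, 51.9, 48.9 and 36.0 normalized counts in male PP and 31.1, 22.9, 19.2 and 9.56 in male LL. In females it had 4.79, 0.909, 8.41, 2.72 and 1.39 (PP) and 7.28, 8.89, 5.69, 7.41 and 3.28 (LL). All 4 male LL mice lay below all 4 male PP mice, a pattern that 2.25% of all genes tested shared. The log2 fold change was -3.64 ± 0.43 between the sexes in PP (adjusted P = 8.32e-15) and -1.66 ± 0.41 in LL (adjusted P = 0.00246). Mup4 met the count limit mostly through male libraries, so its sex difference is a description.

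By genotype Mup4 differed by -1.14 ± 0.36 in males (unadjusted P = 0.00152) and by 0.85 ± 0.48 in females (unadjusted P = 0.0766), and the interaction of genotype and sex was 1.98 ± 0.60 (unadjusted P = 0.000904). DESeq2 gave no adjusted P for these through its filter on low means. Without that filter the adjusted P was 0.194 for males and 0.190 for the interaction, and with edgeR's quasi-likelihood test it was 0.420 and 0.606, so neither was called. The male difference kept its sign in all 23 fits, between -1.38 and -0.87, with adjusted P from 0.0951 to 0.850 in the 15 fits that gave one.

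Mup5, the most proximal of the 4 distal members, had 22.7, 17.8, 37.7 and 20.3 normalized counts in male PP and 15.6, 5.93, 18.0 and 11.9 in male LL. Females had 4.06, 3.68, 5.91, 2.75 and 2.11 (PP) and 3.68, 3.00, 4.76, 3.76 and 0 (LL). Of the male LL mice, 3 lay below all male PP mice and 1 within their range. Mup5 met the count limit through male libraries alone, so its sex difference is a description. The sexes differed by -2.77 ± 0.46 on the log2 scale in PP (adjusted P = 2.25e-07) and -2.05 ± 0.52 in LL (adjusted P = 0.00360), and the male genotypes by -0.94 ± 0.42 (unadjusted P = 0.0260, adjusted P 0.537 without the filter on low means). The female genotypes differed by -0.22 ± 0.56 (adjusted P = 0.919 without that filter).

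Mup6, the only member on the plus strand, was the least abundant. It had 6.40, 30.4, 20.1 and 12.3 normalized counts in male PP and 13.0, 18.0, 10.1 and 5.40 in male LL. Females had 1.60, 3.64, 2.52, 1.81 and 0.694 (PP) and 2.73, 2.96, 0.813, 0 and 0 (LL). Females lay below males, and the male genotypes overlapped. The sexes differed by -3.14 ± 0.62 in PP (adjusted P = 2.50e-05) and -3.06 ± 0.73 in LL (adjusted P = 0.00133). Mup6 met the count limit through male libraries alone, so its sex difference is a description. Summed over mice and scaled by size factors, 12 counts in female PP against 68 in male PP put the female level at 10.9% (95% exact binomial interval 5.36% to 20.3%), and 7 against 41 in LL put it at 12.3% (4.66% to 27.7%), intervals that cover counting error only. Both female groups averaged under 3 counts per mouse, so no fold is given between them, and males differed by genotype by -0.62 ± 0.53 (unadjusted P = 0.246).

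The genotype comparisons called 0 of 6 members in males (0.0731% of genes tested were called lower and 0.283% in either direction) and 0 of 6 in females (0.293% lower and 0.658% in either direction). Only 3 members (Mup3, Mup20 and Mup21) had an adjusted P in these comparisons and in the interaction, so Mup4, Mup5 and Mup6 could not be called. The shares are over all 10938 genes tested, of which 3301 had an adjusted P in males, 8598 in females and 1606 for the interaction. At an unadjusted P below 0.05 there were 2 members in males (Mup4, Mup5) and 0 in females, against 856 and 1427 of the 10938 genes tested. With edgeR 0 members were called in each, where only 3 of all genes tested were called in each. All 6 had a lower mean in male LL, from 45.6% of male PP for Mup4 to 76.9% for Mup3, and their summed level was 70.9% ± 16.6 (SD of male LL, n = 4) of male PP. The interaction of genotype and sex was called for 0 of 6 (0.119% of genes tested), with 1 member (Mup4) at an unadjusted P below 0.05, against 620 of all genes tested. For Mup5 the interaction was 0.72 ± 0.70, and for the remaining 4 members it was smaller than its SE, with errors too wide in Mup5, Mup6, Mup20 and Mup21 to exclude a difference of 1 log2 unit. The comparisons share groups (male PP enters both the male genotype and the PP sex comparison), so their values stand side by side and are not independent. In whole liver, fewer cells of a type and less RNA per cell cannot be told apart.

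**Figure D3:**
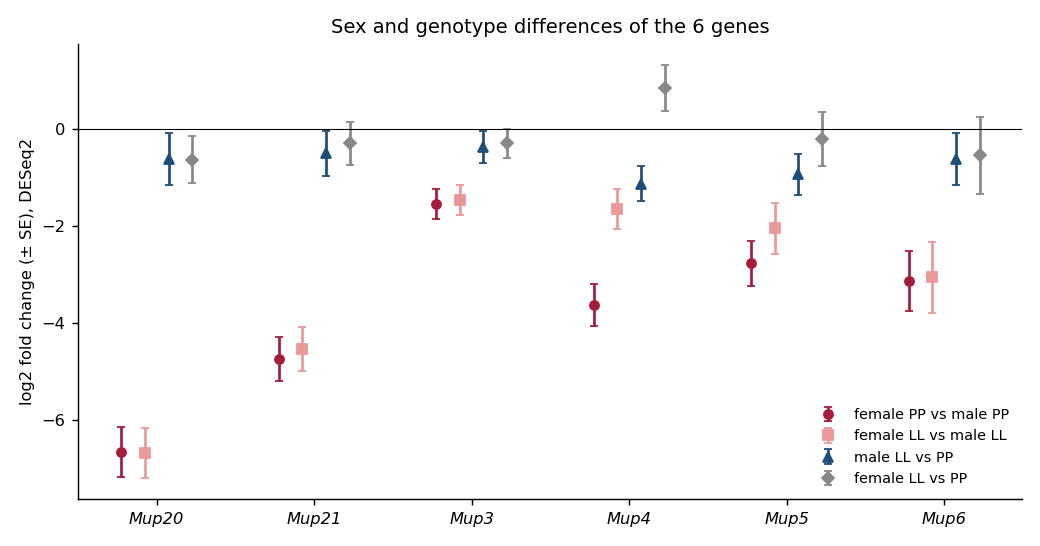
DESeq2 log2 fold change with SE for each gene in both sex comparisons and both genotype comparisons. The sex differences run from -6.69 (Mup20) to -1.47 (Mup3), and the genotype differences lie between -1.14 and 0.85, with Mup4 at both extremes.

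Whether the members moved by unequal amounts was tested on the log2 ratio of 2 members within a mouse, with 1 added to each normalized count, for each of 15 pairs. The added count makes ratios with Mup4, Mup5 or Mup6 depend on library scaling and draws them toward smaller differences. Between female PP and male PP the 3 pairs among Mup3, Mup20 and Mup21 each had a P of 0.0159 (two-sided exact permutation test). These 3 members reached the count limit in every library. The adjusted P of these pairs, 0.0265 over the 15, also depended on pairs with Mup4, Mup5 or Mup6 at the same P. It is therefore no separate support for the 3 pairs. In all, 12 of 15 pairs passed, but 9 of these contain Mup4, Mup5 or Mup6, which entered through male libraries as said above, so that count is a description. The ratio of Mup3 to Mup20 was -0.03 ± 0.32 (SD, n = 4) in male PP and 5.28 ± 0.44 (n = 5) in female PP (exact permutation P = 0.0159, adjusted P = 0.0265), which is the lowest P value this number of mice can give. The ratio of Mup20 to Mup21 fell by 2.08 and that of Mup3 to Mup21 rose by 3.22, both at the same exact permutation P. The 3 pairs that did not pass were Mup3 with Mup6 (exact permutation P = 0.206), Mup4 with Mup6 (0.0952) and Mup5 with Mup6 (0.921), all with the member of fewest counts. Without male PP replicate 2, 3 or 4 there were 0 pairs that passed, and without any other mouse 9 to 11. With 3 against 5 mice the exact permutation P cannot fall below 0.0357, which after adjustment passes only where at least 11 of the 15 pairs reach it, as happened without male PP replicate 1. Between male LL and male PP 0 of 15 pairs passed (0 at an unadjusted exact permutation P below 0.05, smallest 0.114).

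As TPM, Mup20 stood at 0.825 to 1.39 times Mup3 in male PP and 0.495 to 1.55 times in male LL. In females it stood at 0.0180 to 0.0413 times Mup3 (PP) and 0.0121 to 0.0367 times (LL). Mup21 stood at 0.0178 to 0.0336 times Mup3 in male PP, 0.0172 to 0.0332 in male LL, 0.00110 to 0.00377 in female PP and 0.00108 to 0.00688 in female LL. Male liver thus held about as much Mup20 as Mup3 transcript, and female liver held mostly Mup3.

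**Figure D4:**
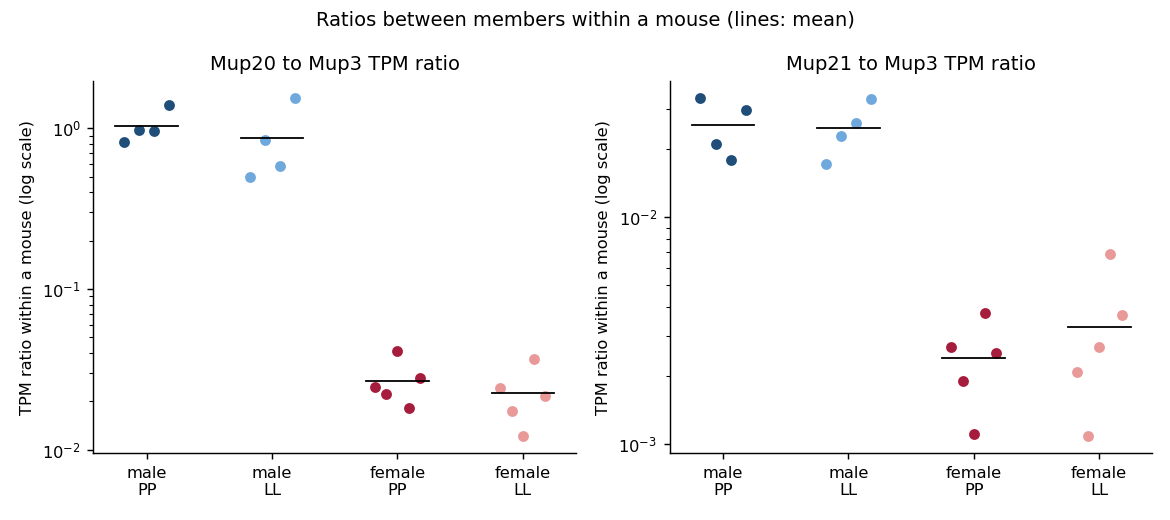
Ratio of Mup20 to Mup3 (left) and of Mup21 to Mup3 (right) in TPM within each mouse on a log scale, with group means as lines. Males and females do not overlap in either ratio, and the male genotypes overlap in both.

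For each member, the genes of most like pattern were those with the smallest mean absolute difference over 18 mice in log2 (normalized count + 1) relative to male PP, among genes with a mean of at least 50 normalized counts. Mup20 was nearest to Cyp4a12b, a male-specific fatty acid omega-hydroxylase (0.51), and then to the Y-linked genes Ddx3y (0.60) and Eif2s3y (0.69). Cyp4a12b shared 62.9% of its own 31-base words with Cyp4a12a. Mup21 was nearest to Cyp7b1, an oxysterol 7-alpha-hydroxylase (0.46), to the terminal complement component C6 (0.58) and to Cyp2d9 (0.64). Mup3 was nearest to Nudt7, a peroxisomal coenzyme A diphosphatase (0.25), to the complement component C8b (0.27) and to the glucuronosyltransferase Ugt2b1 (0.28), whose female PP means were 36.2% to 37.9% of male PP against 34.2% for Mup3.

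Among the low members, Mup4 and Mup6 shared Alas2, the erythroid heme synthesis enzyme (0.66 and 0.65), and Slc41a2 (0.68 and 0.67), and Mup5 and Mup6 shared F2r (0.56 and 0.65). C9 was among the 3 nearest of Mup4 (0.70) and Mup5 (0.55). Among the other Mup genes Mup16 was nearest to Mup3 (0.61), Mup4 (0.57), Mup5 (0.55) and Mup6 (0.62), Mup1 to Mup20 (0.61) and Mup14 to Mup21 (0.80). The counts of these 3 central copies are uncertain, since they shared 94.9%, 69.0% and 87.8% of their words with other genes.

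**Figure D5:**
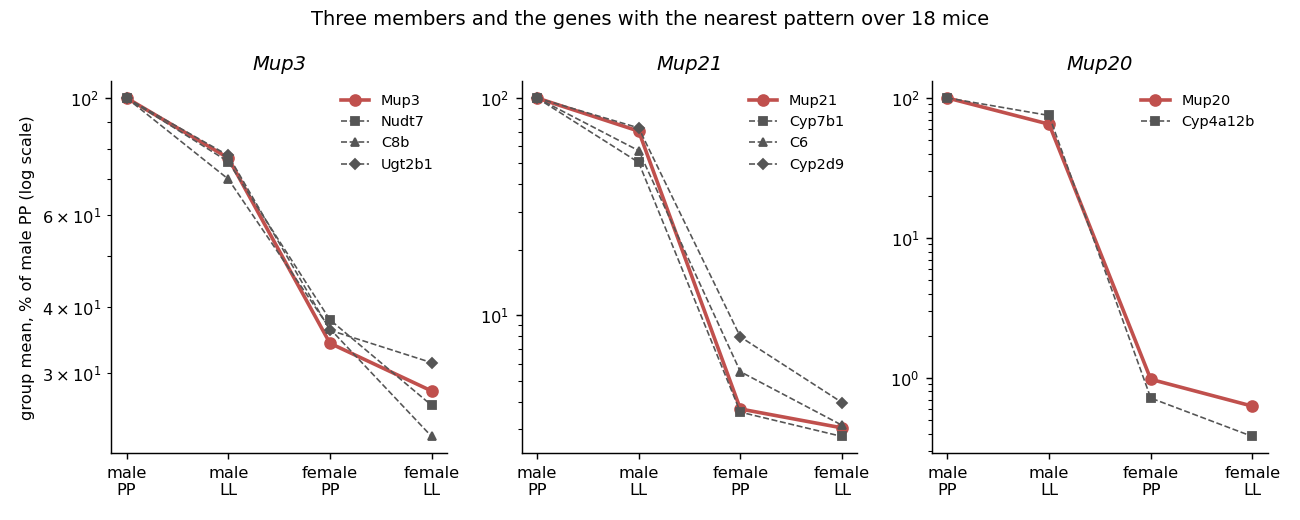
Group means as percent of male PP on a log scale for Mup3, Mup21 and Mup20 (red) and the nearest genes outside the Mup family (gray, Y-linked genes left out). Mup3 falls to 34.2% in female PP, Mup21 to 3.71% and Mup20 to 0.977%. The gray genes were chosen for their closeness to each member in these same mice, so that closeness is no separate result.

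The surrounding gene lists moved as follows. Of the 16 other Mup genes 12 were called lower in female PP (median log2 fold change -5.13, median of all genes tested -0.00) and 11 in female LL (median -4.85). By genotype 0 were called, with 16 of 16 lower in male LL (median -1.41) and 12 of 16 in female LL (median -1.10). Their summed level was 1430060 ± 361856 normalized counts in male PP (SD, n = 4) and 750989 ± 208579 in male LL (n = 4), without overlap. Of 14 male-biased liver genes 12 and 13 were called lower in the same comparisons (medians -4.03 and -4.20), and of 16 female-biased genes 15 and 16 were called higher (medians 8.31 and 6.82). Of 9 other lipocalins tested, Ptgds was called higher (3.35 ± 0.88) and Orm1 lower (-0.73 ± 0.23) in female PP, and Orm3 higher in female LL (2.53 ± 0.59). Cyp17a1, Acot3 and Cyp2a4 of the female-biased list were also called higher in male LL against male PP. The lists of sex-biased genes are known for their direction and contain 5 of the genes named above as nearest to a member (Cyp4a12b, Cyp7b1, C6, Cyp2d9 and Ugt2b1). Of 21 genes tested within 1 Mb outside the cluster, 0 were called lower in either sex comparison, while Ugcg, Hsdl2 and Rgs3 were called higher in female PP and Alad in female LL.

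Of 18 genes of the growth hormone and STAT5 axis and other regulators, 2 were called higher and 1 lower in female PP (median 0.26), and 4 higher in female LL (median 0.40). Cux2, a female-enriched repressor, differed by 5.49 ± 0.81 in PP (adjusted P = 1.23e-09) and 5.98 ± 1.11 in LL (adjusted P = 7.61e-06), and Esr1, the estrogen receptor, by 1.33 ± 0.31 in PP (adjusted P = 0.000542). Bcl6, a male-enriched repressor of STAT5 targets, differed by -2.09 ± 0.62 in PP (adjusted P = 0.0147) but was not called with a replicate block, by limma on log2(TPM + 1), without the mice labelled 9 weeks old or without 1 of 3 single mice (female PP 5, male PP 1 or male PP 4). In LL the feedback inhibitor Socs2 (1.31 ± 0.39, adjusted P = 0.0165), the IGF carrier Igfals (1.05 ± 0.27, adjusted P = 0.00432) and Stat5b (0.65 ± 0.21, adjusted P = 0.0317) were called higher. Of 23 alternatives, the call was lost in 11 for Stat5b, 9 for Socs2 and 2 for Igfals. None of the 18 was called by genotype in either sex, with 13 of 18 lower in male LL (median -0.14).

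Other properties of the libraries also differed between the groups. In female PP against male PP the markers of endothelial cells (3 of 6 called higher, summed level 356 to 723 against 175 to 310 normalized counts) and of stellate cells (4 of 5, 741 to 986 against 298 to 616) were higher, and so was the hepatocyte product Alb (0.94 ± 0.10, adjusted P = 2.22e-17), which was the 1 hepatocyte marker of 5 called. Of all genes tested, 3.68% were called higher in that comparison. In female LL against male LL, 0 of 6 endothelial, 0 of 5 stellate and 0 of 5 hepatocyte markers were called (medians 0.16, 0.32 and -0.23). The 6 Kupffer cell markers had 0 calls in PP and Vsig4 higher in LL (0.85 ± 0.25), with summed levels of 366 to 1071 over all mice. By genotype, 6 of 6 Kupffer cell markers were lower in male LL (median -0.58) and in female LL (median -0.43), with 0 called. Of the hepatocyte markers, 1 of 5 was lower in male LL (median 0.17) and 4 of 5 in female LL (median -0.24). Of these, 0 were called by genotype and 1 was called lower in the interaction. Of the endothelial markers, 6 of 6 were lower in female LL (median -0.62, 1 called) and 1 of 6 in male LL (median 0.32). Of the stellate markers, 0 of 5 were lower in male LL (median 0.64) and 4 of 5 in female LL (median -0.41), with 0 called. The 5 lymphocyte markers summed to at most 19.0 normalized counts and the 3 neutrophil markers to at most 11.9 in any mouse. Fragment length, taken from the deposited lengths, was 396 to 630 bases in male PP, 203 to 582 in male LL, 369 to 631 in female PP and 247 to 377 in female LL, and the mitochondrial share of counts was 8.51% to 10.6%, 9.94% to 17.9%, 9.07% to 12.0% and 10.5% to 13.6%. The part of these in the results was not tested beyond the fit with fragment length, in which 6 of 6 members stayed called in PP and Mup5 was lost in LL (-1.73, adjusted P = 0.0563). Male LL 1, with the highest mitochondrial share, also had the lowest Mup20 and Mup21 of male LL. Gckr itself did not differ by genotype (male LL -0.12 ± 0.15, adjusted P = 0.860, and female LL -0.05 ± 0.13, adjusted P = 0.915), and a single amino acid change leaves no mark on a gene's count, so this checks no label.

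In normalized counts, groups of the sexes did not overlap for any of the 6 members in PP or in LL. Of all genes tested, 4.55% in PP and 4.57% in LL showed the same with females lower. Mup4, Mup5 and Mup6 passed the count limit wholly or mostly through male libraries, so the count of 6 is a description. On the TPM scale Mup3 and Mup6 overlapped in PP (for Mup6, male PP 1 at 0.893 TPM and females up to 1.57) and Mup5 in LL (lowest male 1.22 TPM, highest female 1.25). In estimated counts before scaling, Mup3, Mup4 and Mup5 overlapped in LL. The narrowest gaps were those of Mup4 in LL (1.08-fold between the lowest male and the highest female), Mup5 in LL (1.25-fold) and Mup3 in LL (1.33-fold). The widest were those of Mup20 (37.5-fold in PP and 27.0-fold in LL) and Mup21 (10.7-fold and 7.28-fold).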

How the data were processed

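Liver RNA of 18 mice was sequenced by the authors, who assigned reads with Salmon 1.4.0 (version per the submitters' processing notes) to GENCODE M26 transcripts (GRCm39). The deposited tables listed 139225 transcripts with length, effective length, TPM (scaled by the authors to the same total in every library) and an estimated count (not scaled between libraries). Here transcripts were joined to genes through GENCODE M39 of the same build, which held 137570 of them and at least 99.76% of the counts of each library. Estimated counts were summed per gene and rounded to whole numbers. Genes were kept if 4 or more libraries held 10 or more counts, which left 10938. These entered 1 DESeq2 1.42.0 fit (R 4.3.3) of all 18 libraries with 4 groups. DESeq2 and the limits for a call follow the study's methods. A gene was called at an adjusted P below 0.05 and a fold of at least 1.3 or at most 0.7 (no fold limit for the interaction). An adjusted P that DESeq2 left empty stayed empty. Fragment length was the median difference between length and effective length over transcripts of at least 3000 bases. Alternatives used edgeR 4.0.16 and limma 3.58.1.

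The members and gene lists were chosen with earlier results of these data known. Genes outside the members were named by likeness (3 outside the family and 1 Mup gene per member) and, from each list, at most 4 called genes with the smallest adjusted P. The fit was tested on simulated counts. Shared words and coding identity used M39 sequences of the transcripts in the files, with the transcript of highest mean count per gene for identity. Replicate libraries were compared in 32 pairs, and all differed beyond counting error (chi-square per degree of freedom 11.8 to 97.4), so each counted as a replicate. Nothing in the labels says which mice shared a litter, and P values measure the spread between these mice.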

Additional observations from a re-analysis of the deposited data

Results flagged for a closer look

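One value stood far from the others of its group. Mup21 in male LL 1 was 448 normalized counts, below the 800 to 868 of the other 3 male LL mice, with a gap of 0.838 of the group's range. Values were looked at in 44 combinations of group and measure, and chance alone flags about 1 in 20 groups. The same library had the highest mitochondrial share of counts (17.9%), whose part in the value was not tested.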

How the results depend on the processing

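The calls between the sexes held in nearly every alternative, with 387 to 4307 of all genes called in PP and 312 to 1275 in LL. Mup4, Mup5 and Mup6 met the count limit wholly or mostly through male libraries, so the counts of members are a description. In PP, 6 members were called in all alternatives but limma on log2(TPM + 1), which called 5 (not Mup3). In LL, 6 were called except with fragment length as a term (5, not Mup5), limma (5, not Mup4) and the replicate block with fragment length (4, neither Mup4 nor Mup5). Genotype and interaction calls were 0 in every alternative, but many fits could not call Mup4, Mup5 or Mup6. These members had an adjusted P in 13 to 15 of 23 male fits, 7 to 14 of 25 female fits and 17 to 21 of 32 interaction fits. Over all genes edgeR called 3 and limma 0 in each genotype comparison, and both called 0 in the interaction. Mup6 in male LL against PP was reversed by limma on log2(TPM + 1), at 0.092. The female genotype difference, not called in any fit, was reversed for Mup5 with fragment length as a term (0.21) and for Mup21 with age as a term (0.0068) or without the 9-week mice (0.030), and leaving out 1 mouse gave -0.48 to 0.081 for Mup5 and -0.68 to 0.069 for Mup21. The cause was not tested. Leaving out 1 mouse at a time gave 0 to 11 unequal pairs between the sexes and 66.3% to 79.0% for the summed level in male LL, which was 80.6% as TPM. Replicate numbers do not pair the mice: 6 of 25 pairs correlated above 0.1 (range -0.21 to 0.18), and with a replicate block 6, 6 and 0 members were called in PP, in LL and by genotype.

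Counts over all genes moved by more than 1.5 times, with higher and lower calls as follows. Male LL against PP had 31 (23 and 8), and 3 with edgeR, 95 with total count scaling (92 and 3), 53 with the length offset (28 and 25), 0 with limma (1745 at an unadjusted P below 0.05) and 20 to 60 without 1 mouse. Female LL against PP had 72 (40 and 32), and 3 with edgeR, 31 with the length offset (11 and 20), 0 with limma (895 unadjusted), 14 with fragment length, 44 with age, 16 without the mice labelled 9 weeks old, 13 with the block and fragment length, and 28 to 270 without 1 mouse, while total count scaling gave 49 (19 and 30). Female PP against male PP had 705 (402 and 303), and 2759 with total count scaling (2602 and 157), 4307 with limma (4223 and 84) and 387 without the 9-week mice. Female LL against male LL had 669 (364 and 305), and 1275 with total count scaling (1124 and 151), 432 with fragment length, 312 with the block and fragment length, and 382 and 69 with limma. The interaction had 13, and 0 with edgeR and limma, 8 without independent filtering, 25 with the block and fragment length, 19 with total count scaling (2 and 17) and 3 to 27 without 1 mouse. Total count scaling moved the median of all genes by 0.37 in PP and 0.22 in LL between the sexes and by 0.13 in males by genotype, and TPM by 0.50, 0.20 and 0.21. Fitting the interaction on only the groups compared was not possible, since it uses all 4.

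Depth limits Mup4, Mup5 and Mup6, which had 0 to 10 counts in each female library, and the group sizes limit the genotype comparisons.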
